A study of Mus musculus with 3 samples.

Results

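The cytosolic ribosomal protein genes encode the protein shell of the ribosome, which holds 1 copy of nearly every such protein for each set of ribosomal RNAs. Members were mRNA rows whose symbol begins with Rpl or Rps followed by a number, with at most 1 closing letter a, l or x, together with the stalk genes Rplp0, Rplp1 and Rplp2 and with Rpsa. This rule uses names and no measured value. It found 82 of the 46316 gene symbols in the tables, 51 of the large subunit and 31 of the small subunit. Of these, 79 had a mean of at least 1 CPM (a count scaled to the same library total) over the 3 libraries and were kept, among 13381 genes kept in all. The kept members were 48 large-subunit and 31 small-subunit genes. Rpl3l, the paralog of Rpl3 known from heart and skeletal muscle, had 3, 0 and 2 counts in the 3 libraries, and Rpl10l and Rpl39l, paralogs known from testis, had 0 counts in each.

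RNA came from C2C12, a line of immortalised mouse myoblasts whose cells fuse to myotubes in culture, on day 4 of myogenic differentiation. The wild-type (WT) library came from unmodified cells. The knockout (KO) library came from cells labelled as lacking Drp1, the GTPase that divides mitochondria and is encoded by Dnm1l. The rescue library came from the same KO cells after transient expression of Drp1 with a FLAG tag, so these cells carry the knockout too. Each group was 1 library, and the labels do not say whether the KO cells were 1 clone. Without replicates, the differences below could not be tested, and p-values are not given. Differences between culture dishes and differences between genotypes cannot be told apart.

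Libraries were of similar depth, with 13790381 to 13925267 gene counts. Counts of Dnm1l were 1823 (WT), 1284 (KO) and 1481 (rescue), so its RNA was lower in KO but present, and a count per transcript does not show whether the protein was lost. The summed level of 7 myotube markers was 13719, 14375 and 17740 CPM in WT, KO and rescue. Acta1 and Myh3 made up most of it and, with Myog, were higher in KO than in WT, while Ckm (314, 103 and 256 CPM), Des (3034, 2188 and 2433), Tnnt3 (822, 706 and 1092) and Mymk (722, 611 and 769) were lower in KO. That of 4 fibroblast markers was 377, 147 and 144 CPM, nearly all of it Dcn. Pdgfra went the other way (7.98, 17.4 and 13.9 CPM), Thy1 had at most 1 count and Lum at most 9. Markers of endothelial cells, macrophages and adipocytes summed to at most 0.362 CPM in any library. The part of these differences in the results below was not tested.

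Ribosomal protein genes are among the most strongly transcribed genes of growing cells, and their products are made in near equal numbers because each ribosome needs nearly all of them. Their mRNAs are the classical members of the 5′ terminal oligopyrimidine class (5′TOP): transcription starts at a C inside a run of C and T, and that run lets the mTOR pathway, through the RNA-binding protein Larp1, set how well the mRNA is translated and how long it is kept. A change in translation of these mRNAs would not be seen in RNA counts. In muscle, ribosome content follows growth and differentiation, and free Rpl5 and Rpl11, which travel with 5S rRNA, bind Mdm2 and thereby stabilise p53.

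The sequence feature looked for in the members was this pyrimidine run at the start. It was found at an annotated start of 22 of the 61 members with an annotated promoter. The windows below were taken from RefSeq's table of promoters (GRCm38.p6, a build other than that of the counts), from 20 bases before the annotated start to 20 bases from it, on the gene's strand. Capitals mark a run of 6 or more C or T that begins within 5 bases of the start. The first 10 are shown, of 22 members that carry the run, as well-known or abundant examples of both subunits. The last pair is shown because Rpl11 and Rps27l were the members lowest in KO relative to WT. Neither had such a run at the annotated start, and they were among 36 kept members with a window and no run.
Rpl12: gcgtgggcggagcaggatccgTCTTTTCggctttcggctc
Rpl15: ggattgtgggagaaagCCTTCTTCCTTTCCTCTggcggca
Rpl27a: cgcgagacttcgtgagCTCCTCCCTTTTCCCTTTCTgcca
Rpl28: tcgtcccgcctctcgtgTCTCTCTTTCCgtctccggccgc
Rpl38: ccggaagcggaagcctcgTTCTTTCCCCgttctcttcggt
Rplp2: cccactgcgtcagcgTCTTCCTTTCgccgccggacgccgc
Rps6: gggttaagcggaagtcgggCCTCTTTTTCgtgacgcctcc
Rps10: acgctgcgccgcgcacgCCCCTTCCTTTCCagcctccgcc
Rps26: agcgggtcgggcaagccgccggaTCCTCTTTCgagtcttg
Rps27: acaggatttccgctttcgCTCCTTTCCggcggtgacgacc
Rpl11: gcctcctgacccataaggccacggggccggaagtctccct
Rps27l: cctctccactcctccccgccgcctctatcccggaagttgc

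The Rpl12 window lies at chr2:32961692-32961731 on the plus strand, that of Rpl15 at chr14:18270967-18271006 on the minus strand and that of Rpl27a at chr7:109519175-109519214 on the plus strand. The Rpl28 window is chr7:4792945-4792984, that of Rpl38 chr11:114668560-114668599 and that of Rplp2 chr7:141447631-141447670, each on the plus strand. On the minus strand are the windows of Rps6 (chr4:86857348-86857387), Rps10 (chr17:27635225-27635264), Rps26 (chr10:128626487-128626526) and Rps27 (chr3:90213629-90213668). Rpl11 is at chr4:136053374-136053413 on the minus strand, and the Rps27l window shown is at chr9:66946066-66946105 on the plus strand. All of these windows span a promoter and the first bases of the 5′ UTR.

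Promoter windows of 300 bases, 250 before the annotated start and 50 from it, were in the table for 61 of the 82 members (73 windows). The pyrimidine run was at the start in 22 of the 73 windows (30.1%) and in 3963 of all 32851 windows (12.1%). Annotated starts can be some bases from the starts a cell uses, so a window without the run says only that these letters are not there. Searched on both strands over the 300 bases, CTTTC, which can be part of the run, was in 80.8% of the members' windows and in 57.3% of all windows. GGAAGT, the core letters of sites for ETS factors such as GABP, was in 45.2% and 23.8%, and GGGCGG, the letters of the GC box, in 57.5% and 35.7%. The YY1 letters AAGATGGC were in 9.59% and 2.75%, and the TATA box letters TATAAA in 9.59% and 13.6%. Each of the motifs except TATAAA was therefore in a larger share of the members' windows than of all windows.

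The members were abundant in all 3 libraries. Over all kept members, levels per length, given as TPM (the read count divided by transcript length and brought to the same sum in each library), had a median of 269 in WT, 276 in KO and 293 in rescue. In WT, KO and rescue the members held 470904, 481794 and 551387 counts. These counts were 3.39% of all gene counts in WT (exact 95% binomial interval 3.38 to 3.40), 3.49% in KO (3.48 to 3.50) and 3.96% in rescue (3.95 to 3.97). Rescue had the largest share, and WT and KO lay close together. The summed myotube markers were also highest in rescue, though Ckm and Des among them were highest in WT. These intervals, like all others here, cover counting error only. In bulk RNA, a difference in the RNA of each cell and a difference in the mix of cells cannot be told apart.

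**Figure D1:**
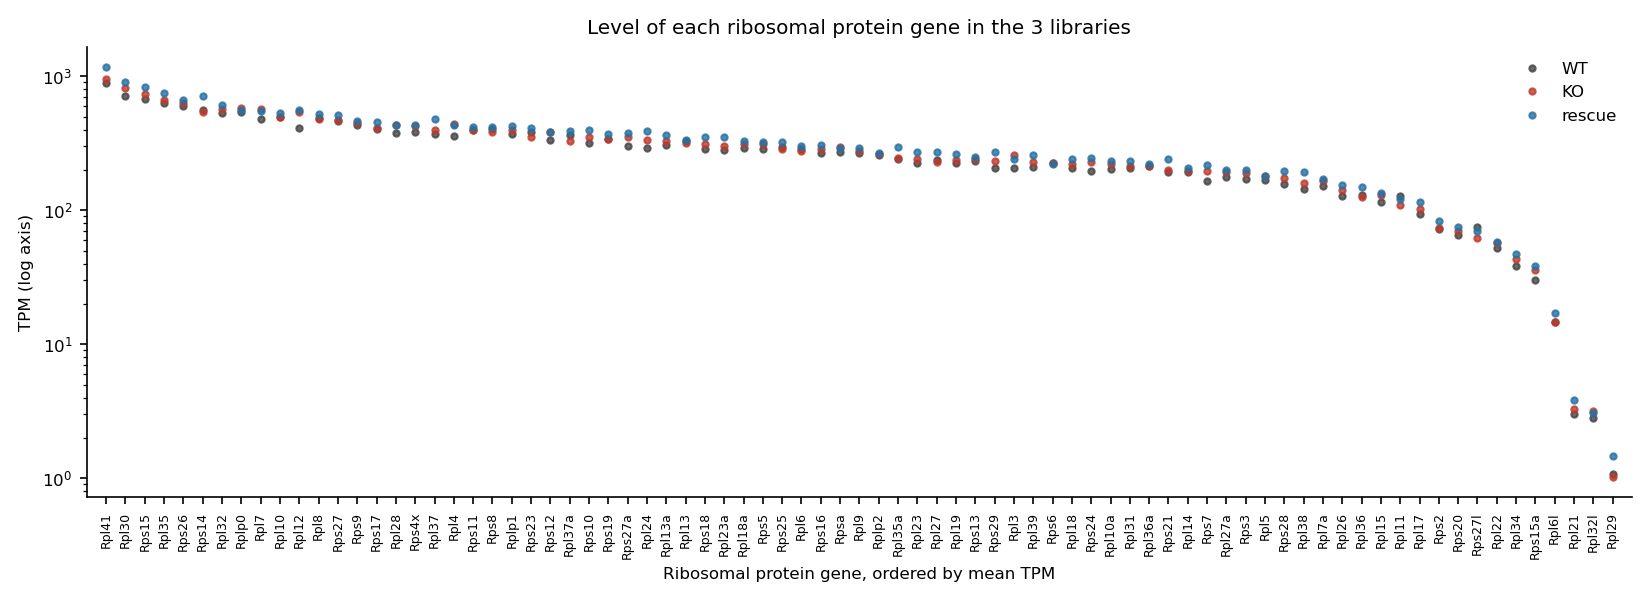
Level of each of the 79 kept ribosomal protein genes in TPM (log axis), ordered by mean TPM, with 1 point per library (WT, KO and rescue). Apart from a low tail of Rpl6l, Rpl21, Rpl32l and Rpl29, levels run from 30.4 TPM (Rps15a in WT) to 1163 TPM (Rpl41 in rescue).

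Rpl41, which encodes the smallest ribosomal protein, was the most abundant member by TPM. Its TPM was 893 in WT, 948 in KO and 1163 in rescue. Rpl30, a large-subunit protein that contacts the small subunit, followed with 707, 812 and 913 TPM. Next came Rps15, a small-subunit protein near the decoding site, with 680, 733 and 830 TPM, then Rpl35, found at the exit of the peptide tunnel, with 633, 662 and 756. Rps26, which lies at the mRNA exit channel, was the fifth with 604, 628 and 667 TPM. In each of these 5 genes WT was lowest and rescue highest. The median TPM of small-subunit genes was 285, 313 and 326 in WT, KO and rescue, and that of large-subunit genes was 231, 245 and 271. The kept members thus had a common scale, but not equal levels.

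At the lower end, Rpl29 had 33, 30 and 46 counts in WT, KO and rescue (1.07, 1.02 and 1.47 TPM). Rpl32l had 44, 47 and 49 counts, and Rpl21 had 146, 152 and 191. Rpl29 and Rpl21 encode standard parts of the large subunit, and counts this low on their rows may be set by how reads that match several places were treated, which was not tested. Rpl6l had 366, 346 and 435 counts. Rps15a, with 4108, 4623 and 5285 counts, ranked among the 5 lowest by TPM (30.4, 35.8 and 38.4) because its row is 5136 bases long, the longest of any kept member. Of the 79 genes, 75 had at least 500 counts in every library, and the other 4 were Rpl21, Rpl29, Rpl32l and Rpl6l.

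Transcript rows of a member could not be separated. The 82 members had 153 mRNA rows, and 33 members had 2 or more. Among kept members with 2 or more rows, the row with the fewest counts had a median of 99.9% of the highest and no less than 90.8%. The row also sets the length used for TPM. Rpl19, for example, had 225 TPM in WT on its row of 2023 bases and 615 on a row of 738 bases with nearly the same count.

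The KO library was compared with WT to ask how the members stood in cells labelled as lacking Drp1. Ratios are of counts scaled by edgeR TMM factors with 0.5 added, on the log2 scale. Ribosomal protein genes were almost level between KO and WT, with a median log2 ratio of 0.06 and values from -0.31 for Rps27l to 0.36 for Rpl12. They were also close to each other: the middle 50% of members spanned 0.13 log2 units, against 0.57 for all genes kept. For protein-coding genes of similar length with at least 50 CPM, described below, the middle 50% spanned 0.39. Of the 79 members, 52 lay above 0 and 27 below. Genes past a log2 ratio of 0.32 in size were counted as higher or lower. By this limit only Rpl12 was higher in KO, where 23.3% of all genes kept were, and no member was lower, where 22% of all genes were. Of the protein-coding genes of similar length with at least 50 CPM, 6.24% were higher and 34.7% lower. No member was 2-fold apart in either direction, beside 9.42% of all genes. The counting interval, whose half-width had a median of 0.06, lay above 0 for 39 members and below 0 for 12. Members had a median of 398 CPM, against 28.9 for all genes kept, and counting intervals are narrower at higher counts. Such interval counts, here and in the later comparisons, were not made for all genes kept.

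Rpl12, a large-subunit protein at the base of the stalk, had the largest difference, with counts of 6911, 8735 and 9602 in the order WT, KO, rescue. It was 1.29-fold higher in KO than in WT (log2 ratio 0.36, counting interval 0.32 to 0.41). Rpl3, which lies close to the peptidyl transferase centre, had 8248, 9852 and 9870 counts, a log2 ratio of 0.28 in KO against WT. Rpl7 had 11791, 13441 and 13882 counts and a log2 ratio of 0.21. In these 3 genes WT was low, and KO and rescue were closer to each other than to WT.

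Rpl30, the second most abundant member, had 9715, 10650 and 12774 counts (log2 ratio 0.16 in KO against WT). Rpl24, the gene hit in the mouse Belly spot and tail mutant, had 5195, 5740 and 7121 (0.17), and Rpl28 had 4913, 5389 and 5770 (0.16). Among small-subunit genes Rps12 had 4554, 4955 and 5292 counts (0.15) and Rps29 had 2128, 2292 and 2849 (0.13). For all 5 genes the order was WT, KO, rescue from low to high, with KO within the limit of 0.32 from WT.

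The members lowest in KO were a different pair. Rps27l, a paralog of Rps27 that is known as a p53 target, had counts of 1162, 921 and 1106. It was 1.24-fold lower in KO than in WT (log2 ratio -0.31, counting interval -0.44 to -0.18), just inside the limit of 0.32, and its value in rescue was close to that in WT (-0.04, interval -0.16 to 0.08). Rpl11, the 5S-bound protein named above, had 4033, 3330 and 3906 counts and was 1.19-fold lower in KO (-0.25, -0.32 to -0.18), with rescue again near WT (-0.02, -0.08 to 0.05). These were the 2 kept members whose scaled count was not highest in rescue. Rpl5, the partner of Rpl11 on 5S rRNA, differed from it: 8973, 9177 and 9762 counts gave 0.06 in KO against WT. Rps27 itself had 4196, 4069 and 4787 counts and a log2 ratio of -0.02.

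**Figure D2:**
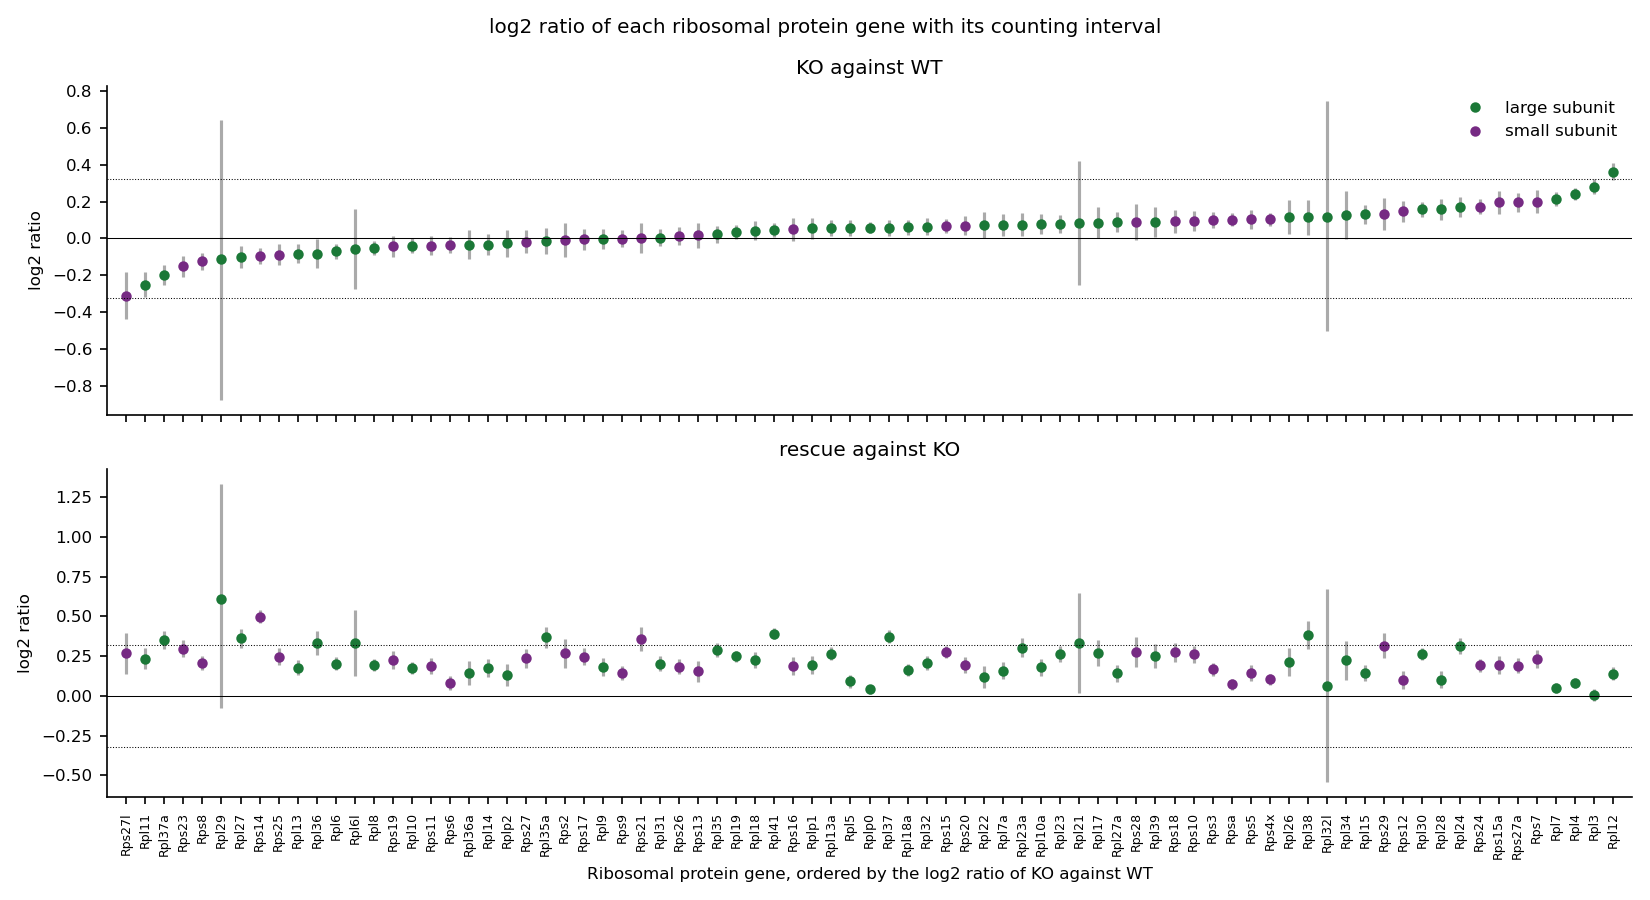
The log2 ratio of each ribosomal protein gene in KO against WT (top) and rescue against KO (bottom), in the same gene order, with its exact 95% counting interval as a bar and colour for the subunit. Dotted lines mark a log2 ratio of 0.32 in either direction: 1 gene (Rpl12) is beyond them in the upper panel and 12 genes are in the lower one, where every point lies above 0.

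Large-subunit and small-subunit genes had similar medians. The median log2 ratio in KO against WT was 0.06 for 48 large-subunit genes and 0.05 for 31 small-subunit genes. In rescue against KO it was 0.21 for both, and in rescue against WT 0.27 and 0.24. The stalk, which recruits the translation GTPases, is made of Rplp0 with Rplp1 and Rplp2. Rplp0 had 19294, 19745 and 20277 counts in WT, KO and rescue and log2 ratios of 0.06 (KO against WT) and 0.04 (rescue against KO). Rplp1 had 4561, 4654 and 5315 counts (0.05 and 0.19), and Rplp2 had 3117, 3008 and 3289 (-0.03 and 0.13). Rpsa, a small-subunit protein also known as a laminin receptor precursor, had 13221, 13946 and 14632 counts (0.10 and 0.07). All 4 genes were highest in rescue, and none of their differences reached the limit of 0.32.

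Members are short, and ratios in these libraries varied with transcript length, so each was also set beside other protein-coding genes of its length. The median length of the kept members was 740 bases (346 to 5136), against 3392.5 for the other 11750 protein-coding genes kept. Over 2266 of those genes with 461.8 to 1857 bases, the 10th to 90th percentile of the members' lengths, the median log2 ratio in KO against WT was -0.17, and 34.8% counted as lower. Among the 689 of these with a mean of at least 50 CPM the median was -0.21. A length-adjusted value was then taken as a member's log2 ratio minus the median of the 200 other protein-coding genes nearest to it in length. In KO against WT the adjusted values had a median of 0.28, from -0.04 to 0.64, and 77 of 79 lay above 0. The exceptions were Rpl11 (-0.04) and Rps27l (-0.01). Without the filter on low counts, when the reference also holds genes with no counts, the adjusted median was 0.031. The members were thus almost level between KO and WT, while 1514 of the 2266 genes of similar length had a ratio below 0.

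Among members, length and the KO against WT ratio went together weakly. The ratio had a median of 0.04 over the 27 shortest, whose median length was 494 bases, while the medians of genes nearest to them in length had a median of -0.30. The 26 of middle length (760 bases) had 0.02 beside -0.24, and the 26 longest (1377 bases) had 0.07 beside -0.16. Across the 79 members Spearman's rho of length and ratio was 0.13, a description over genes that share both libraries. The distance between members and other genes was therefore widest at the shortest lengths. The adjusted value was highest for Rpl12 (0.64), then 0.46 for Rpl28, Rpl30 and Rpl24, 0.45 for Rps12 and 0.44 for Rps29.

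Among members whose higher library held 200 or more counts, the lowest adjusted values in KO against WT after Rpl11 and Rps27l were those of Rps15a (0.03), Rps20 (0.04), Rpl19 (0.07) and Rpl5 (0.08). Rpl29, with under 50 counts, had 0.06. The first 4 genes are counted on long rows, of 5136, 3446, 2023 and 2019 bases, and the 200 genes nearest to each had medians of 0.17, 0.03, -0.03 and -0.02. Unadjusted, they were not low among members: Rps15a had a log2 ratio of 0.20, Rps20, a protein of the small subunit's head, had 5908, 6093 and 6970 counts (0.07), and Rpl19 had 11975, 12068 and 14317 (0.04). With the shortest row that held at least 95% of a gene's highest count, chosen after the data were seen, the members' adjusted median was 0.27.

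**Figure D3:**
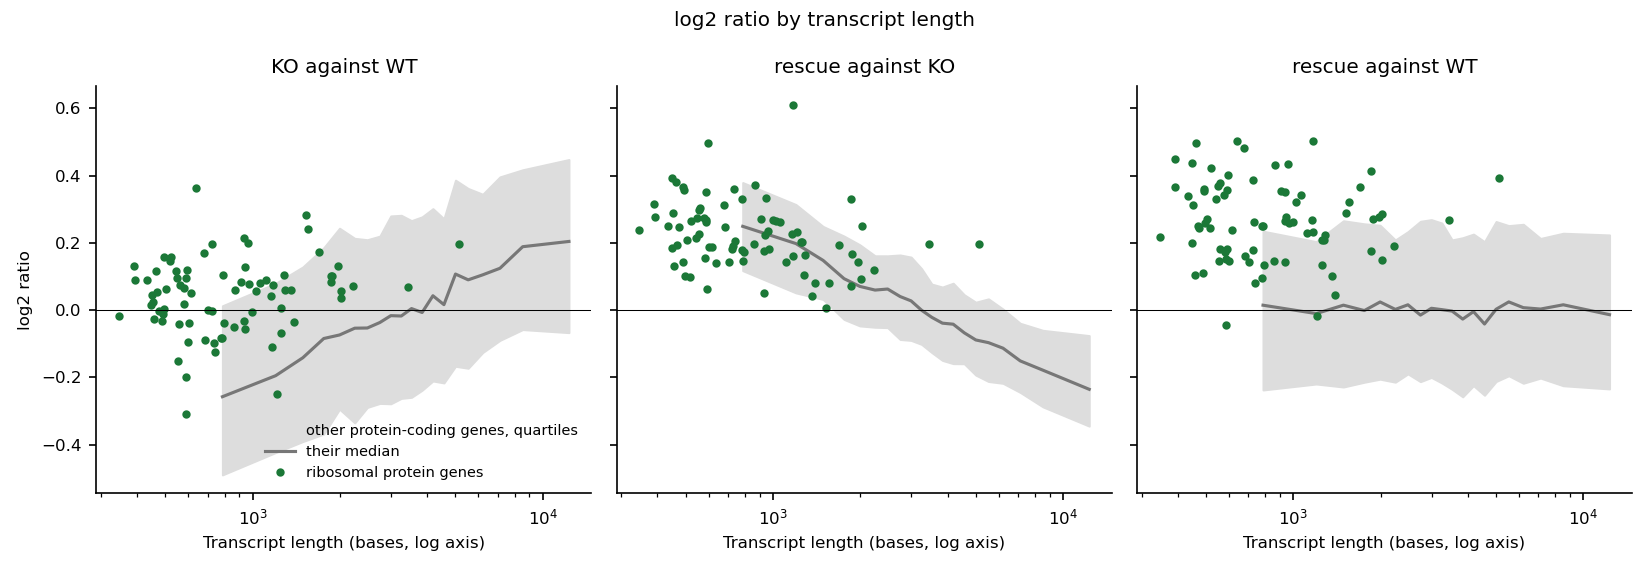
Transcript length (bases, log axis) against log2 ratio for the 79 ribosomal protein genes (points), with the median (line) and middle 50% (band) of other protein-coding genes in 20 bins of length. In KO against WT most points lie above the band's median, in rescue against KO they lie along it, and in rescue against WT, where the line is flat, most lie above it.

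Rescue was compared with KO to ask which differences accompanied FLAG-Drp1 expression. Every one of the 79 members had a ratio above 0 in rescue against KO, with a median log2 ratio of 0.21, from 0.01 for Rpl3 to 0.61 for Rpl29. The median over all genes kept was 0.00. By the limit of 0.32, 12 members, or 15.2%, counted as higher, beside 10.5% of all genes kept. Of genes of similar length with at least 50 CPM 18.3% did. Rpl29, Rpl21 and Rpl6l, each with under 500 counts in a library, were among the 12. No member was lower, beside 9.66% of all genes, and none was 2-fold apart, beside 1.88%. The counting interval lay above 0 for 76 members. The exceptions were Rpl29 and Rpl32l, with under 50 counts in each library, and Rpl3.

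Genes of similar length lay mostly above 0 in rescue against KO too. Of the 2266 such genes 80.1% lay above 0, with a median log2 ratio of 0.17, and 20.7% counted as higher. Among those with at least 50 CPM 92.2% lay above 0, with a median of 0.19. Relative to the 200 genes nearest in length the members had a median of -0.02, from -0.22 to 0.44, with 32 above 0 and 47 below. The direction that all members shared in rescue against KO was thus the direction of most genes of their length, and relative to the nearest genes the members' median did not lie above 0. It was 0.062 against reference genes of at least 200 CPM, and 0.204 without the filter on low counts. In this comparison the shortest members had the higher ratios: the median was 0.27 for the 27 shortest, 0.19 for the 26 of middle length and 0.18 for the 26 longest, and Spearman's rho with length was -0.35.

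Rps14, a small-subunit protein known for its loss in the human 5q- syndrome, stood out among abundant members. Its counts were 8776, 8072 and 11370, giving a log2 ratio of 0.50 for rescue against KO (counting interval 0.46 to 0.54) and of -0.10 for KO against WT. Rescue was high and KO lowest, and its length-adjusted value in rescue against KO was 0.22. Rpl37, a large-subunit zinc-binding protein, had 8400, 8597 and 11113 counts, with 0.37 in rescue against KO and an adjusted value of 0.15. Rpl41, at the top of the TPM order, had 10556, 10699 and 14006 counts and a ratio of 0.39. In Rpl37 and Rpl41, WT and KO were nearly equal and rescue was high.

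At the other end of the adjusted values in rescue against KO, among members with at least 200 counts, were Rps12 and Rpl28 (both -0.19), Rplp2 (-0.16), Rpl36a (-0.15) and Rpl7 and Rpl3 (both -0.14). Rpl32l, with under 50 counts, had the lowest value (-0.22), and the highest, 0.44, was that of Rpl29, while Rpl21, also under 200 counts, had 0.22. Rpl3 had a ratio of 0.01 and Rpl7 of 0.05, so these genes, higher in KO than in WT, were at about the same level in KO and rescue. Rpl36a, a protein near the ribosome's exit site for tRNA, had 2749, 2639 and 2907 counts (0.14). Rpl6l, with few counts, had 0.33 in rescue against KO (interval 0.13 to 0.54), and the 4 long-row genes Rps15a, Rps20, Rpl19 and Rpl5 had adjusted values of 0.30, 0.20, 0.20 and 0.04.

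Rescue against WT shares the rescue library with the comparison just described and the WT library with the first, so it is not independent of them. Members were higher in rescue than in WT with a median log2 ratio of 0.26, from -0.04 to 0.50, and 77 of 79 lay above 0. The number counted as higher was 27 members, or 34.2%, beside 20.6% of all genes kept. Rpl29 and Rpl21, with few counts, were among the 27. No member was lower (18.2% of all genes) and none was 2-fold apart (7.65%). Here transcript length made little difference: genes of similar length had a median of 0.01 with 19.7% counted as higher, and the members' adjusted median was 0.24, with 77 of 79 above 0. The counting interval lay above 0 for 75 members and below 0 for none. Rpl12 and Rpl38 had the largest ratios among members with more than 50 counts, both 0.50. Rpl38, known for its part in translating Hox mRNAs, had 1742, 1855 and 2409 counts.

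Over the 3 libraries together, 77 of the 79 members had their highest scaled count in rescue. The lowest was in WT for 52 members, in KO for 27 and in rescue for none. By scaled count the order WT, KO, rescue was therefore the most frequent one, but its WT and KO part was often within counting error. The counting interval of the KO to WT ratio was above 0 for 39 members and below 0 for 12, and held 0 for the rest. Without adjustment for length, the median step was small from WT to KO (0.06) and larger from KO to rescue (0.21). Relative to the genes nearest in length it was 0.28 from WT to KO and -0.02 from KO to rescue. How often other genes had the order WT, KO, rescue was not tested. Each step was read alone: WT to KO went up in 33.2% of genes of similar length and 50.1% of all genes kept. KO to rescue went up in 80.1% and 50.3%.

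**Figure D4:**
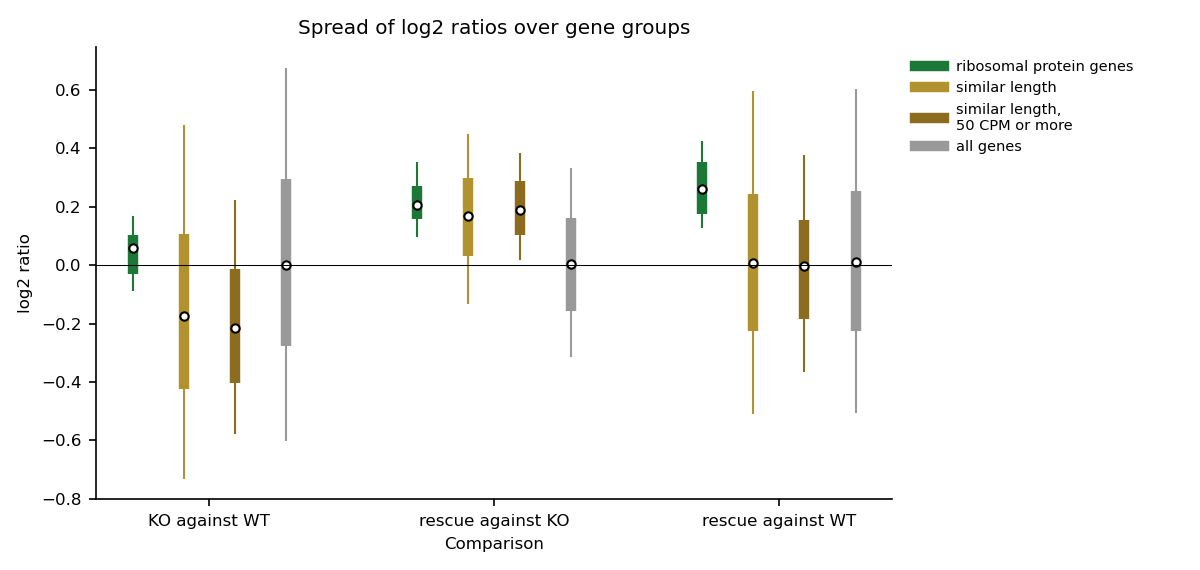
Median (white point), middle 50% (thick bar) and 10th to 90th percentile (thin line) of log2 ratios for ribosomal protein genes, protein-coding genes of similar length, those of them with at least 50 CPM, and all genes kept, in each comparison. The bars of the ribosomal protein genes are the shortest in all 3 comparisons, and their KO against WT median of 0.06 lies above the -0.17 of genes of similar length.

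Members were also read by the pyrimidine run at the annotated start. In KO against WT the median log2 ratio was 0.07 for the 22 kept members with the run, 0.05 for the 36 with a window and no run and 0.06 for the 21 with no window. The length-adjusted medians were 0.28, 0.26 and 0.30. In rescue against KO the 3 medians were 0.21, 0.19 and 0.21. In rescue against WT they were 0.27, 0.22 and 0.27, with adjusted medians of 0.28, 0.21 and 0.26. The groups with and without the run lay farthest apart in rescue against WT, by less than the spread among members. Rpl12 and Rpl28, whose runs are printed above, were high in KO against WT, while Rplp2 and Rps27, with runs too, had ratios just below 0.

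Many members have processed pseudogenes, copies of their mRNA in the genome, which can take or give reads. The tables held 226 pseudogene symbols named after ribosomal protein genes, and 157 had counts. Among kept members 54 had counts on such pseudogenes, 11 of them more than 25% of their own count. In Rps2 and Rpl34 the pseudogenes had more counts than the gene: Rps2 had 1906, 1864 and 2239 counts beside 6316, 6261 and 7508 on its pseudogenes, and Rpl34 had 952, 1022 and 1191 beside 2728, 2703 and 3185. The level of these members is therefore uncertain. The 25 kept members with no pseudogene counts had median log2 ratios of 0.06, 0.25 and 0.27 in the 3 comparisons as ordered above, with adjusted medians of 0.28, 0.02 and 0.25. In rescue against KO that adjusted median lay above 0 where that of all 79 lay below, and both were within 0.03 of it.

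Paralogs differed in their pattern over the libraries. Rpl22, a large-subunit protein with roles outside the ribosome, had 3057, 3159 and 3424 counts in WT, KO and rescue. Its paralog Rpl22l1, whose symbol lies outside the rule, had 712, 947 and 1066 counts, which gave 0.44 for KO against WT on the log2 scale (counting interval 0.30 to 0.58) beside 0.07 for Rpl22. Rpl7l1 went the other way from Rpl7, with 1594, 1360 and 1480 counts and a ratio of -0.20 beside 0.21. Rpl36al had 1798, 1540 and 1808 counts (-0.20) beside -0.03 for Rpl36a. Rpl39, with 2408, 2518 and 2989 counts, Rpl10, with 10460, 10001 and 11258, and Rpl3 had counts where their tissue-restricted paralogs had at most 3. Rps4x, the X-linked form of that small-subunit protein, had 13003, 13735 and 14741 counts.

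Ribosomal proteins that the name rule misses were read as a list of 6 with Rps19bp1, a binding protein of Rps19. Their median log2 ratio in KO against WT was -0.00 (0.26 adjusted for length), with 1 counted as higher and none as lower. Of all genes kept 23.3% counted as higher and 22% as lower, and with 6 genes a departure from those shares was not tested. The list's median is not the value of any 1 gene. It lay between Rack1 (0.20) and Rpl36al (-0.20), with no gene of the list between them, so the list was split and not level. Fau, which encodes Rps30 fused to a ubiquitin-like protein, had 5094, 6051 and 7026 counts (0.27). Rack1, the scaffold on the small subunit, had 15088, 16997 and 17987 counts (0.20). Rps3a1, a small-subunit gene added after its values were seen, had 7108, 7355 and 8006 (0.07). Rack1 was singled out after its values were seen too. Fau, Rack1 and Rps3a1 followed the order WT, KO, rescue, while Rps19bp1 was at -0.31 in KO against WT, and Rpl7l1 and Rpl36al, given above, were at -0.20.

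Other mRNAs known to carry a 5′TOP run were read as a list with 27 kept genes, 22 of them protein-coding. Their median in KO against WT was 0.15 on the log2 scale (0.22 adjusted), with 6 counted as higher and 1 as lower, so the number higher was near the 23.3% of all genes kept. In rescue against KO the median was 0.10 (-0.03 adjusted) with none higher or lower, and in rescue against WT it was 0.26. Pabpc1, the poly(A)-binding protein, had counts of 20205, 29599 and 26422 (0.58 in KO against WT), above any member. Eif4a2, a helicase of initiation, had 6257, 8403 and 9266 (0.45), and Eif3e, a subunit of initiation factor eIF3, had 4541, 6068 and 6536 (0.44). These genes were low in WT, as were Rpl12 and Rpl3. The 12 small nucleolar RNA host genes are long non-coding RNAs of which several also start in such runs. They had a median of 0.22 in KO against WT. Of them 3 counted as higher and none as lower, beside 23.3% and 22% of all genes kept.

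The list of elongation factors, 9 kept, also held Eef2k and Eef1e1, which are not elongation factors themselves. Its median in KO against WT was 0.07 on the log2 scale (0.10 adjusted), with 3 higher and 1 lower. The adjusted median was the value of Eef2k, and the gene counted as lower was Eef1e1. Eef1g, a subunit of the exchange factor for eEF1A, was 0.35 in KO against WT, Eef1e1 was -0.42 and Eif5a2 0.51. Initiation factors, 30 kept, had -0.01 (-0.02 adjusted), with 6 higher and 3 lower, among them Eif2s2 at 0.53 and Eif1b at -0.55. The lists share genes with each other and with the 5′TOP list. Both had wider ranges than the ribosomal protein genes. Of all genes kept 23.3% counted as higher and 22% as lower, and departures of these short lists from those shares were not tested.

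Genes that make ribosomes, or act on them, were read as 3 lists. The 68 assembly factors had a median of -0.08 on the log2 scale in KO against WT (-0.06 adjusted), with 4 higher and 12 lower, both smaller shares than the 23.3% and 22% of all genes kept. Heatr3, which escorts Rpl5 and Rpl11, had 755, 477 and 549 counts (-0.64), Nhp2, a box H/ACA protein, was at -0.53 and Sbds, which frees the large subunit of eIF6, at -0.50. RNA polymerase I and its factors, 17 kept, had a median of -0.12 (0.07 adjusted), with 2 higher and 5 lower, and the largest differences were in Taf1a (-0.53), Polr1d (-0.52) and Polr2l (-0.43). Binders of ribosomal protein mRNAs and quality control factors, 17 kept, had -0.08 (-0.08 adjusted), with 2 higher and 3 lower. Within that list Gtpbp2, a rescue factor for stalled ribosomes, was highest with 757, 1498 and 1271 counts (1.01), Rbm3, a cold-induced RNA-binding protein, had 3125, 1823 and 2200 (-0.75), and Pelo, which splits stalled ribosomes, was at -0.87. Larp1, the 5′TOP binder, was at 0.08 in KO against WT, inside the range of the members. For the lists of 17 genes, departures from the 23.3% and 22% of all genes kept were not tested.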

How the data were processed

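Gene expression was measured by RNA-seq in 3 C2C12 libraries, 1 per group, grouped by their labels. The submitters' processing notes name cutadapt 1.9.1 and HISAT2 2.2.1 with the build GRCm39, and featureCounts 2.0.0. Their settings, the strand and how reads matching several genes were treated are not given in these sources. The authors deposited a raw read count per transcript row, with no normalization. The RPKM deposited by the authors divides it by length and library total, and the TPM deposited by the authors divides it by length and brings each library to the same sum; both were recomputed from the counts, and the deposited TPM was used for levels.

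A gene's count was its row with the highest sum over the libraries (for members, mRNA rows). Library totals were scaled by TMM factors from edgeR 4.0.16 (1.01, 1.00 and 0.989 for WT, KO and rescue), and 0.5 was added before log2. Ratio intervals are exact conditional 95% (Clopper-Pearson) intervals, and with 1 library per group no test was made. Higher and lower mean at least 1.25-fold, which is 0.32 on the log2 scale. Scripts were tested on simulated data. DESeq2 size factors, other filters, rows, pseudocounts and reference genes were alternatives. Members and lists were chosen with earlier results of these data known, and 1 listed gene is not reported here. The named genes were the 6 members highest and the 6 lowest relative to length in KO against WT, among members whose higher library held 200 or more counts, the same for rescue against KO, the 5 highest and 5 lowest by TPM, stalk proteins, Rpsa, paralogs and up to 3 genes of each list. Rpl38, Fau, Rack1, Larp1 and the pseudogene examples, and Rpl41 in rescue against KO, were singled out after their values were seen.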

Additional observations from a re-analysis of the deposited data

Results flagged for a closer look

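Counts on pseudogene rows named after ribosomal protein genes are a signal outside the rows compared above. Their sums were 40494 (WT), 42583 (KO) and 47338 (rescue), which is 8.60%, 8.84% and 8.59% of the members' own counts. The order of the libraries was that of the members. For 36 pseudogenes with at least 300 counts over the 3 libraries and a kept member as parent, the median log2 ratio was 0.06 in KO against WT, 0.18 in rescue against KO and 0.23 in rescue against WT. Their 27 parents had medians of 0.08, 0.19 and 0.26. The largest was Rpl3-ps1, with counts of 5241, 6480 and 6176, and log2 ratios of 0.33 for KO against WT and of -0.07 for rescue against KO, beside 0.28 and 0.01 for Rpl3. Whether these counts are transcripts of the pseudogenes or reads of their parents was not tested.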

How the results depend on the processing

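With 1 library per group, intervals cover counting error only, and no paired analysis was possible because no group has a second library. Of 90 values recomputed under alternatives, 13 moved beyond the median counting half-width of a single gene (0.06, 0.05 and 0.05 log2 units in the order of the comparisons), a wide margin for a median, or beyond 1.5 times a count. Over alternatives the members' median log2 ratio ranged from 0.04 to 0.06 in KO against WT, from 0.19 to 0.25 in rescue against KO and from 0.23 to 0.27 in rescue against WT. Without a filter on low counts, where the reference includes genes with no counts, the length-adjusted median was 0.031 for KO against WT and 0.204 for rescue against KO. With that setting 1 member, Rpl3l, counted as lower for KO against WT, as did 1, again Rpl3l, for rescue against WT, and with scaling to the total of gene counts 1 member, Rps27l, was lower in KO against WT. Against reference genes of at least 200 CPM, chosen after the data were seen, the adjusted median was 0.062 in rescue against KO, where its sign turned, and 0.29 in rescue against WT; the cause was not tested. The adjusted median in rescue against KO also turned to 0.00 with 400 nearest genes. Without members that have pseudogene counts, which leaves 25, the number counted as higher was 0 in KO against WT, 5 in rescue against KO and 9 in rescue against WT. These are among the 13 values above. Of all 79 members the numbers were 1, 12 and 27, so a lower number among 25 does not by itself mark a change. Summed over mRNA rows, where rows of 1 gene repeat the same reads, the members' share of counts was 1.23% in WT, 1.24% in KO and 1.46% in rescue.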
